A study of Mus musculus with 8 samples.

Results

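The Slc25 genes encode the mitochondrial carriers, the transport proteins of the inner mitochondrial membrane. They were taken as every row of the deposited gene table whose symbol is Slc25a followed by a number, which gave 46 of 17190 genes. Of these, 38 were tested for a difference between genotypes among 12826 tested genes, and 8 had too few reads. Hearts came from wild-type male mice (4 libraries, numbered 2, 4, 5 and 6) and from male Gpihbp1-/- mice (4 libraries, numbered 1, 2, 3 and 4), all fed standard chow. Gpihbp1 is the capillary protein that carries lipoprotein lipase to the vessel lumen, and the study asked what its loss does to the heart. Strain, age and the way the deletion was made are not given in the sources used here, nor is it said whether the animals were littermates, so the tests speak only to the spread among these 8 animals.

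A mitochondrial carrier is built from repeats that each cross the membrane as a pair of helices, and it swaps or co-transports small molecules between cytosol and matrix. In the heart, where mitochondria supply most of the ATP, the ADP/ATP exchanger and the phosphate carrier feed ATP synthase. The carnitine carrier admits fatty acids bound to carnitine for oxidation. The aspartate-glutamate and oxoglutarate carriers form the malate-aspartate shuttle, which brings reducing power from glycolysis into the matrix. Other members move cofactors, iron, glutathione and amino acids.

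Library totals ran from 9065560 to 13493000 estimated reads. Gpihbp1 had 833 to 1951 reads in the wild-type libraries and 0 to 1 in the knockout libraries, so each library matched its label. Cardiomyocyte markers were abundant in every heart, and 3 hearts stood apart from the rest. Wild-type 2 and knockout 2 had summed fibroblast and matrix markers of 3165 and 4022 TPM (a level scaled for transcript length and library size), against 302 to 772 in the other 6, and macrophage markers of 5735 and 4928 TPM against 428 to 833. Their cardiomyocyte markers summed to 60036 and 62449 TPM against 121526 to 140410 in the other 6. Wild-type 6 had 18551 TPM of red cell markers, against 1257 to 5049 elsewhere, and 804 TPM of Myl4, an atrial myosin light chain, against 2.61 to 3.55 in the knockout hearts. Atrial markers, mostly Nppa, summed to 5937, 10794 and 4919 TPM in wild-type 2, knockout 2 and wild-type 6, against 345 to 589 in the other 5. Nppa made up nearly all of this sum in wild-type 2 (5933 TPM) and knockout 2 (10791 TPM). Myl7 and Sln, also on the list, had 643 and 665 TPM in wild-type 6. In the knockout hearts they had at most 1.72 and 0.87 TPM. The lowest wild-type values of Myl4, Myl7 and Sln were 3.33, 0 and 0 TPM. Their wild-type means, 204, 161 and 166 TPM, came almost wholly from wild-type 6. In bulk tissue, fewer cells of a type and less RNA per cell cannot be told apart.

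Promoter sequences are shown for 3 carriers whose levels the results turn on: the heart and muscle ADP/ATP exchanger Slc25a4, its broadly expressed relative Slc25a5, and the carnitine carrier Slc25a20. Each is the 250 bases before the annotated start, 5′ to 3′ on the gene's strand, from RefSeq on GRCm38.p6, with matches to the searched motifs in capitals.
Slc25a4 (chr8:46211063-46211312, minus strand): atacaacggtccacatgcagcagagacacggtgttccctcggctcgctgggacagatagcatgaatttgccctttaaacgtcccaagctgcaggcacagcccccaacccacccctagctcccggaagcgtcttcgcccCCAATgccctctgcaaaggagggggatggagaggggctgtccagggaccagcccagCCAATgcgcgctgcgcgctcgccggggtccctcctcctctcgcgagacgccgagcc
Slc25a5 (chrX:36795347-36795596, plus strand): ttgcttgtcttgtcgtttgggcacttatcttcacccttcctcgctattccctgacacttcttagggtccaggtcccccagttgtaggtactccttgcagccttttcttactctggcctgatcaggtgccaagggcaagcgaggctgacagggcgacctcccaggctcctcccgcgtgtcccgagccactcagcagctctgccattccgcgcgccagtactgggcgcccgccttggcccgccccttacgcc
Slc25a20 (chr9:108661886-108662135, plus strand): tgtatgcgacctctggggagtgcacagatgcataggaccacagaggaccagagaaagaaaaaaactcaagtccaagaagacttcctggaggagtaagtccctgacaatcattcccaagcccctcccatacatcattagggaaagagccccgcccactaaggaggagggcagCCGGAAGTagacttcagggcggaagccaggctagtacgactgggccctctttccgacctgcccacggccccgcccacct
The Slc25a4 window held 2 copies of CCAAT, the Slc25a20 window held 1 copy of the ETS motif CCGGAAGT, and the Slc25a5 window matched none of the motifs searched. GC content was 64.8%, 61.6% and 56.8%, with 18, 14 and 8 CpG dinucleotides.

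RefSeq windows matched 35 of the 46 carriers (45 windows, as some genes have several starts). Motifs were searched on both strands in the 250 bases and did not overlap each other in the windows shown. CCAAT was present for 18 of 35 carriers, in 21 of 45 windows, and in 33.9% of all 32851 windows of the table. The TATA box TATAAA was present for 2 of 35, Slc25a18 and Slc25a21, in 2 of 45 windows, and in 12.4% of all windows. CCGGAAGT was present for 1 of 35, Slc25a20, in 1 of 45 windows, and in 2.88% of all windows. TCAAGGTCA, the motif of estrogen-related receptors, was present for 0 of 35, in 0 of 45 windows, and in 0.387% of all windows. These letters describe the windows and do not show whether a factor binds there.

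Carrier transcripts in the heart were concentrated in a few genes. On the TPM scale, which can be compared between genes, Slc25a4 (NCBI gene 11739) had a mean of 7863 over the 8 hearts and ranked 12th of all listed genes. It made up 65.4% of all Slc25 TPM. The phosphate carrier Slc25a3 (NCBI gene 18674) followed with 2273 TPM, and the pair together came to 84.3%. Slc25a5 had 521, the oxoglutarate carrier Slc25a11 had 449, the glutathione carrier Slc25a39 had 182 and Slc25a20 had 125 TPM. These 6 were the only carriers with a mean of 100 TPM or more. A further 18 lay between 10 and 100 TPM, 14 between 1 and 10, and 8 below 1.

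The order at the top held in every heart for Slc25a4 over Slc25a3, and for Slc25a3 over all others. Slc25a4 had 4099, 7800.1, 9064 and 7115 TPM in wild-type 2, 4, 5 and 6 and 9859, 4482, 10755 and 9734 TPM in knockout 1, 2, 3 and 4, the order used for all values below. Slc25a3 had 1269.9, 1837, 3477 and 1346 TPM across wild-type hearts, with 2432, 1568, 2989.9 and 3266 TPM across knockout hearts. Neighbours further down changed places: Slc25a5 was above Slc25a11 in wild-type 2 and knockout 2 and below it in the other 6 hearts. Slc25a5 had 555, 318, 607 and 224 TPM across wild-type hearts, with 444, 874, 582 and 562 TPM across knockout hearts, against 259, 337, 650.4 and 372 and 456, 298, 587 and 633 TPM for Slc25a11. The plot of levels shows this order and how far the hearts overlap for each gene.

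**Figure D1:**
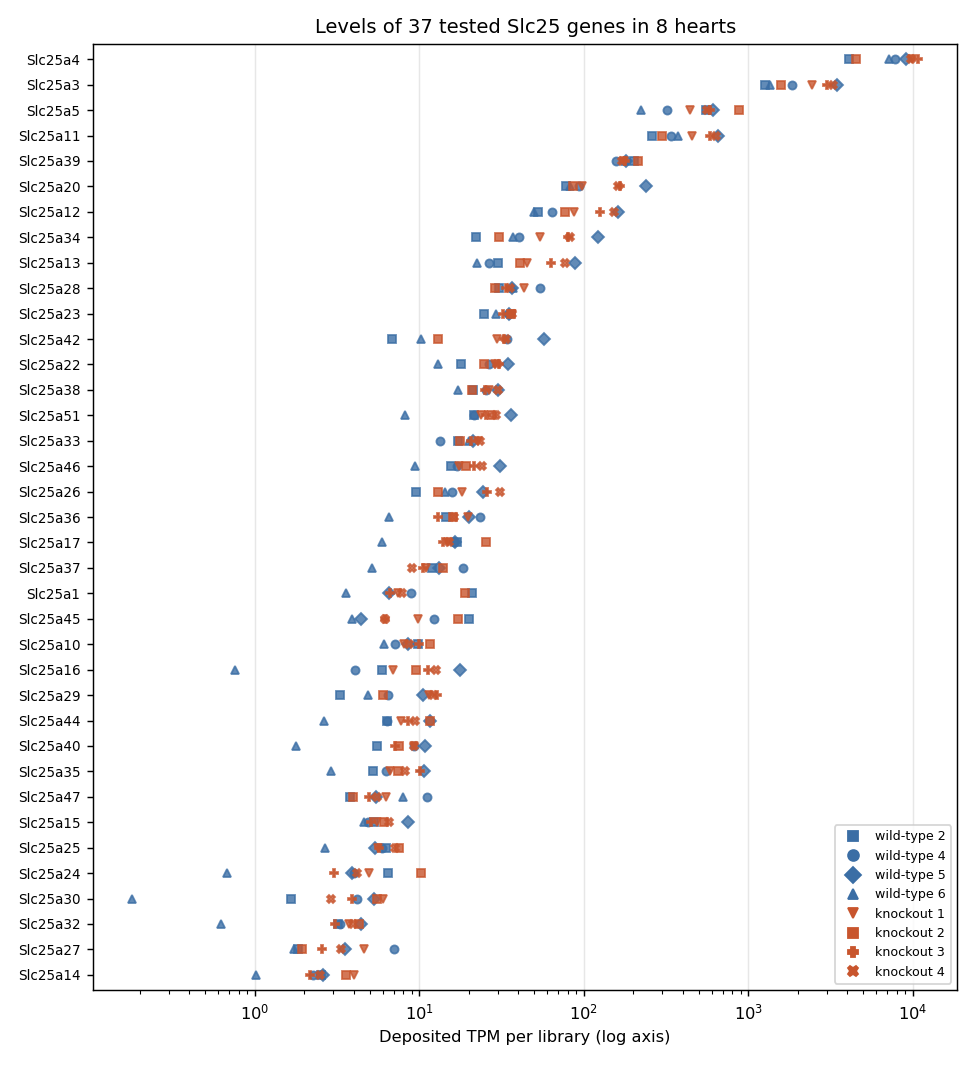
Deposited TPM of 37 of the 38 tested Slc25 genes in each of 8 hearts (log axis), ordered by mean TPM; blue marks are wild-type and orange marks knockout hearts. Slc25a4 and Slc25a3 lie to the right of all other carriers in every heart, and wild-type and knockout marks overlap for each gene.

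All Slc25 genes summed to 6900, 11112, 15096 and 9667 TPM across wild-type hearts, with 14076, 8084, 15946 and 15291 TPM across knockout hearts. That was 0.690% to 1.51% of all TPM for the wild type, against 0.808% to 1.59% for the knockout, with wild-type 2 and knockout 2 lowest in their groups. Slc25a4 took 59.4%, 70.2%, 60.04% and 73.6% of the family sum across wild-type hearts, with 70.04%, 55.4%, 67.4% and 63.7% across knockout hearts. Its share was lowest in knockout 2 and highest in wild-type 6, and the groups overlapped. Set against 10 nuclear genes of respiration, the citric acid cycle and the matrix (Cs, Sdha, Cox4i1 and others), the family sum was 0.714, 0.638, 0.646 and 0.618 of theirs across wild-type hearts, with 0.690, 0.722, 0.741 and 0.685 across knockout hearts, again with overlap.

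No Slc25 gene passed the test for a difference between the genotypes. Of 38 tested carriers, 0 reached the threshold of 0.05 on edgeR's adjusted p, where 0.0312% of all tested genes (4 of 12826) passed. At an unadjusted p under 0.05 there were also 0, against 0.904% of all tested genes, and DESeq2 gave 0 at both levels. No tested carrier had groups that did not overlap, against 0.632% of all tested genes. At these shares, fewer than 1 of 38 carriers would be reached by each rule, so the counts of 0 are near the background. The median log2 fold change of the 38, knockout over wild type, was 0.025 beside -0.019 for all tested genes, with 20 positive and 18 negative. The median size of the change, without its sign, was 0.18 for the carriers and 0.18 for all tested genes. Their edgeR adjusted p was 0.99998 for each.

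The data leave room for changes of moderate size. The 95% intervals of all 38 log2 fold changes spanned 0, and for 20 of them the whole interval lay between -1 and 1, a 2-fold change either way. For the other 18, among them Slc25a4, Slc25a3 and Slc25a20, a 2-fold change in at least 1 direction was within the interval. Standard errors ran from 0.20 to 0.60, with a median of 0.32, beside 0.33 for all tested genes.

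**Figure D2:**
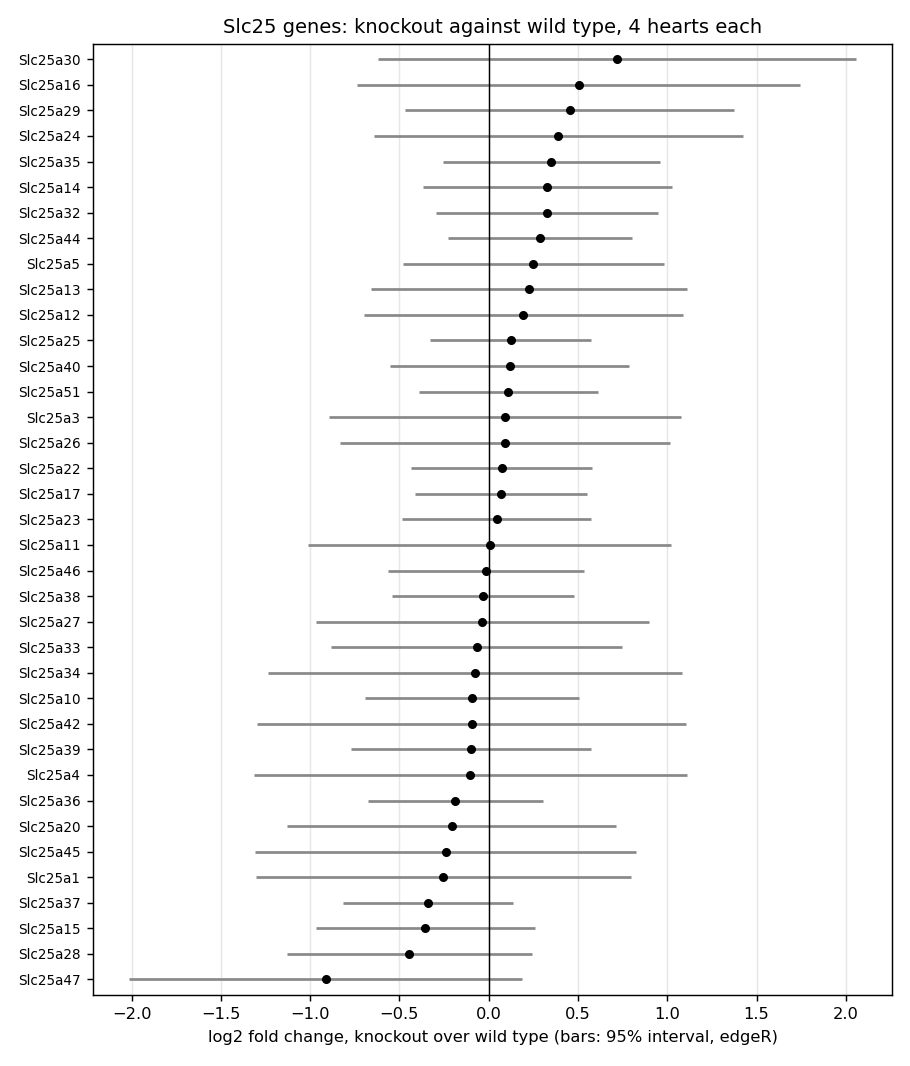
Log2 fold change of 37 of the 38 tested Slc25 genes, knockout over wild type (points), with its 95% interval from edgeR's quasi-likelihood fit (bars), 4 hearts in each group. Points run from -0.91 for Slc25a47 to 0.72 for Slc25a30, and every bar crosses 0.

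Among the adenine nucleotide and phosphate carriers, 0 of 6 tested members passed, 5 had positive and 1 negative log2 fold changes, and the median was 0.11. Values for testing are CPM, counts scaled to library size with TMM factors. The factor was 0.678 for wild-type 6 and 0.964 to 1.16 for the other 7 hearts, which raises CPM in wild-type 6 beside its TPM. TPM in wild-type 6 was also unlike the rest: the median over tested genes was 4.12, against 9.31 to 12.78 in the other 7 hearts. For several carriers CPM and TPM rank this heart differently, and the cause was not tested. Slc25a4 stood at 3822, 6437, 6734 and 14467 CPM across wild-type hearts, with 8165, 3286, 9751 and 8105 CPM across knockout hearts. Wild-type 6 was highest in CPM, wild-type 2 and knockout 2 were lowest, and the groups overlapped. On the TPM scale knockout 3 (10755) was highest, and wild-type 6 (7115) lay below wild-type 4 (7800.1). The group means were 7865 ± 4592 and 7327 ± 2799 CPM (SD, n = 4 each), with a log2 fold change -0.10, its interval running from -1.31 to 1.11. Leaving out 1 heart at a time moved this fold change from -0.33 (without wild-type 2) to 0.35 (without wild-type 6). Its sign changed in 6 of 17 other settings of the fit. For Slc25a3, which brings in the phosphate that ATP synthase uses, the hearts had 1255, 1602, 2704 and 2901 CPM across wild-type hearts, with 2114, 1217, 2838 and 2846 CPM across knockout hearts. Its low hearts in CPM were again wild-type 2 and knockout 2, while in TPM wild-type 6 (1346) also lay below knockout 2 (1568). Its log2 fold change was 0.091 with an interval from -0.90 to 1.08. Slc25a5, the exchanger typical of growing and non-muscle cells, had 499.6, 254, 435 and 439 CPM across wild-type hearts, with 356, 619, 509.6 and 452 CPM across knockout hearts. Here wild-type 2 and knockout 2 were the highest of their groups in CPM, the reverse of Slc25a4. On the TPM scale wild-type 5 (607) lay above wild-type 2 (555). The log2 fold change of Slc25a5 was 0.25 with an interval from -0.48 to 0.98.

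The ATP-Mg/phosphate carriers, which are opened by cytosolic calcium and set the size of the matrix adenine nucleotide pool, were far lower. Slc25a23 had 52.4, 66.2, 68.2 and 101.05 CPM across wild-type hearts, with 72.3, 69.6, 74.3 and 80.4 CPM across knockout hearts, a log2 fold change 0.044 with an interval from -0.49 to 0.57. Slc25a24 had 17.3, 9.50, 8.38 and 3.94 CPM across wild-type hearts, with 11.9, 21.7, 7.93 and 9.98 CPM across knockout hearts. It was highest in wild-type 2 and knockout 2 and lowest in wild-type 6, and its log2 fold change was 0.39 with an interval from -0.65 to 1.42. Slc25a25 varied least of all 38 tested carriers, 1.47-fold between its lowest and highest heart in CPM, with a log2 fold change 0.12.

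The carriers of the malate-aspartate shuttle did not pass the test, and their hearts overlapped. The aspartate-glutamate exchanger Slc25a12, the main form in heart and brain, had 131, 141, 322 and 266 CPM across wild-type hearts, with 193, 150.0, 303 and 338 CPM across knockout hearts. Slc25a13, the form best known from liver, had 73.3, 57.7, 175 and 119 CPM across wild-type hearts, with 97.6, 79.4, 152 and 168 CPM across knockout hearts. In CPM both were lowest in wild-type 2, wild-type 4 and knockout 2 and high in wild-type 5 and knockout 4. In TPM both were lowest in wild-type 6, at 49.45 and 22.46. Their log2 fold changes were 0.19 and 0.23, with intervals from -0.70 to 1.09 and from -0.66 to 1.11. Slc25a11, which trades oxoglutarate for malate in the same shuttle, had 341, 385, 723 and 993 CPM across wild-type hearts, with 550.4, 324, 794 and 784 CPM across knockout hearts. Wild-type 6 was highest in CPM, and wild-type 2, wild-type 4 and knockout 2 were low. On the TPM scale wild-type 6 (371.79) lay below wild-type 5, knockout 1, knockout 3 and knockout 4. The log2 fold change of Slc25a11 was 0.0058 with an interval from -1.01 to 1.02.

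The other carboxylate carriers were low in the heart. Slc25a1 exports citrate for fatty acid and sterol synthesis, and it had 25.6, 9.69, 6.46 and 9.56 CPM across wild-type hearts, with 8.14, 18.3, 7.93 and 8.67 CPM across knockout hearts. The high values were those of wild-type 2 and knockout 2, each far above the other 3 hearts of its group. The log2 fold change was -0.25 with an interval from -1.30 to 0.80. It was 0.33 without wild-type 2, -0.64 without knockout 2 and -0.053 without both. Slc25a10, which exchanges malate or succinate for phosphate, had -0.095. In all, 0 of 3 tested carboxylate carriers passed, 1 positive and 2 negative.

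The carnitine carrier Slc25a20, which admits acylcarnitines for beta-oxidation, did not pass. It had 100.2, 106, 246 and 231 CPM across wild-type hearts, with 111, 87.0, 208 and 186 CPM across knockout hearts. In CPM, high hearts were found in both groups, namely wild-type 5, wild-type 6, knockout 3 and knockout 4, and the lowest was knockout 2. In TPM, wild-type 6 was among the low hearts (82.69), and the lowest was wild-type 2 (77.87). Means were 171 ± 78.7 and 148 ± 58.0 CPM (SD, n = 4 each), with a log2 fold change -0.21, its interval running from -1.13 to 0.71. The enzymes on either side of it, Cpt1a, Cpt1b, Cpt2 and Crat, numbered 0 of 4 past the threshold, 1 positive and 3 negative. Cpt1b was at -0.23, Crat at -0.48, Cpt2 at -0.45 and Cpt1a at 0.096 on the log2 scale (standard errors 0.44, 0.51, 0.41 and 0.23). Their summed TPM ran from 365 to 1275 across wild-type hearts, and from 487 to 913 across knockout hearts.

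Of 7 tested amino acid carriers 0 passed, with 5 positive and 2 negative values, Slc25a12 and Slc25a13 included. The glutamate carrier Slc25a22 had 35.3, 46.6, 55.5 and 55.9 CPM across wild-type hearts, with 51.5, 39.2, 59.7 and 52.9 CPM across knockout hearts. In CPM it was lowest in wild-type 2 and knockout 2, while in TPM it was lowest in wild-type 6 (13.02). Its log2 fold change was 0.073 with an interval from -0.43 to 0.58. Slc25a29, a carrier of basic amino acids, had 4.88, 8.36, 12.5 and 15.6 CPM across wild-type hearts, with 15.04, 6.96, 18.5 and 15.9 CPM across knockout hearts. In both groups the heart numbered 2 was lowest, and its log2 fold change 0.45, interval from -0.47 to 1.37, was the largest in the group. The ornithine carrier Slc25a15 had -0.35, the glycine carrier Slc25a38 -0.034 and Slc25a44, a carrier of branched-chain amino acids, 0.29, with standard errors of 0.27, 0.23 and 0.23.

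Cofactor and nucleotide carriers numbered 9, all tested, with 0 past the threshold, 5 positive and 4 negative. Slc25a42, a carrier of coenzyme A, was the most abundant and had 17.1, 76.1, 116 and 55.7 CPM across wild-type hearts, with 66.2, 25.8, 80.2 and 75.7 CPM across knockout hearts. In CPM, wild-type 2 and knockout 2 were far below the other 6 hearts, while in TPM wild-type 6 (10.25) also lay below knockout 2 (13.04). The log2 fold change was -0.10 with an interval from -1.30 to 1.11. Slc25a16, a relative also tied to coenzyme A, had 14.4, 8.93, 35.2 and 4.08 CPM across wild-type hearts, with 15.3, 18.6, 27.3 and 27.9 CPM across knockout hearts. Wild-type 5 and wild-type 6 were the highest and the lowest of all hearts. Its log2 fold change was 0.50, interval from -0.74 to 1.74, and leaving out 1 heart at a time moved it from 0.17 (without wild-type 6) to 1.27 (without wild-type 5, unadjusted p = 0.0179, edgeR adjusted p = 0.758).

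The pyrimidine nucleotide carriers peaked in different hearts. Slc25a33 had 20.1, 12.9, 22.0 and 43.6 CPM across wild-type hearts, with 24.7, 15.6, 26.3 and 27.3 CPM across knockout hearts. Its peak in CPM was wild-type 6, while in TPM it was knockout 4 (23.22), with 20.13 in wild-type 6. The log2 fold change was -0.068, and 0.34 without wild-type 6. Slc25a36 had 61.2, 88.0, 67.1 and 59.6 CPM across wild-type hearts, with 74.6, 52.9, 54.1 and 60.6 CPM across knockout hearts, with its peak in wild-type 4 and a log2 fold change -0.19. Others were the S-adenosylmethionine carrier Slc25a26 at 0.091, the NAD carrier Slc25a51 at 0.11, the folate carrier Slc25a32 at 0.33 and the peroxisomal Slc25a17 at 0.069. The standard errors of these 4 ran from 0.22 to 0.41.

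Iron and glutathione carriers numbered 4, with 0 past the threshold, 1 positive and 3 negative. Slc25a28, the iron importer of most tissues, had 29.4, 45.1, 29.6 and 68.6 CPM across wild-type hearts, with 37.3, 23.7, 33.1 and 32.6 CPM across knockout hearts. Wild-type 6 and wild-type 4 were highest in CPM and knockout 2 lowest. On the TPM scale, wild-type 4 (54.5) was highest and wild-type 6 (36.85) lay below knockout 1 (43.22). The log2 fold change was -0.45 with an interval from -1.13 to 0.24 (edgeR unadjusted p = 0.178). Slc25a37, the iron importer of developing red cells, had 40.8, 55.3, 36.5 and 37.2 CPM across wild-type hearts, with 34.1, 37.999, 34.9 and 27.2 CPM across knockout hearts. Its highest heart was wild-type 4, and the log2 fold change was -0.34 with an interval from -0.81 to 0.14 (edgeR unadjusted p = 0.141). Slc25a39, the glutathione carrier, had 203, 128, 176 and 307 CPM across wild-type hearts, with 164, 203, 209 and 184 CPM across knockout hearts, and its relative Slc25a40 had 96.2, 161, 141 and 74.6 CPM across wild-type hearts, with 158, 97.9, 114 and 142 CPM across knockout hearts. In CPM, wild-type 6 held the highest Slc25a39 and the lowest Slc25a40 of the 8 hearts. On the TPM scale, Slc25a39 had 178.06 in wild-type 6 and was highest in knockout 2 (213.74), while Slc25a40 was again lowest in wild-type 6 (1.77). Their log2 fold changes were -0.10 and 0.12, with intervals from -0.77 to 0.58 and from -0.55 to 0.78.

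The relatives of the uncoupling proteins were rare transcripts. Slc25a30 had 2.30, 4.66, 5.15 and 0.422 CPM across wild-type hearts, with 7.08, 5.64, 4.80 and 3.30 CPM across knockout hearts, and the value of wild-type 6 rested on 3 reads. Its log2 fold change 0.72 was the highest of the family, with an interval from -0.62 to 2.06 (unadjusted p = 0.257). Slc25a14 had 2.65, 2.19, 2.18 and 2.39 CPM across wild-type hearts, with 3.89, 3.22, 2.35 and 2.35 CPM across knockout hearts, with a log2 fold change 0.33, its interval running from -0.37 to 1.03. Slc25a27 had -0.037 with a standard error of 0.42.

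Carriers with other or unsettled substrates numbered 5 tested, with 0 past the threshold, 1 positive and 4 negative. Slc25a34 was the most abundant of these and had 46.3, 74.4, 205 and 168 CPM across wild-type hearts, with 100.9, 50.2, 164 and 153 CPM across knockout hearts. The lowest were wild-type 2 and knockout 2, wild-type 5 was highest, and the log2 fold change was -0.077 with an interval from -1.24 to 1.08. Slc25a47, best known from liver, had 4.32, 11.4, 4.98 and 19.96 CPM across wild-type hearts, with 6.46, 3.61, 5.58 and 5.84 CPM across knockout hearts. Wild-type 6 and wild-type 4 lay above all other hearts, while wild-type 2 and wild-type 5 lay within the knockout range. Its log2 fold change -0.91 was the lowest of the family, with an interval from -2.01 to 0.19 and the smallest unadjusted p of all members, 0.0940. Leaving out 1 heart at a time moved it from -1.17 (without wild-type 2) to -0.38 (without wild-type 6). Slc25a45 had -0.24, Slc25a35 0.35 and Slc25a46, an outer membrane member that acts in mitochondrial fission and fusion, -0.016.

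The carriers varied between hearts within each genotype. From its lowest to its highest heart, a tested carrier varied 1.47-fold to 16.8-fold in CPM, with a median of 2.42-fold beside 2.53-fold for all tested genes. Of 38 carriers, 10 were lowest in knockout 2, 8 each in wild-type 2 and wild-type 6, 7 in wild-type 4, 4 in wild-type 5 and 1 in knockout 4. The highest heart was wild-type 6 for 13 carriers and wild-type 5 for 8, on a scale that its TMM factor raises for wild-type 6. The median deviation of the carriers from their own means was -0.26 in wild-type 2, -0.26 in knockout 2 and -0.18 in wild-type 4 on the log2 scale, and 0.21 in knockout 3 and knockout 4. The grid of deviations shows both hearts numbered 2 low for Slc25a4, Slc25a34 and Slc25a42 and high for Slc25a1, Slc25a24 and Slc25a45. In these hearts cardiomyocyte markers were the lowest and matrix and macrophage markers the highest, as given above, and the part of these cell types in the carrier levels was not tested.

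**Figure D3:**
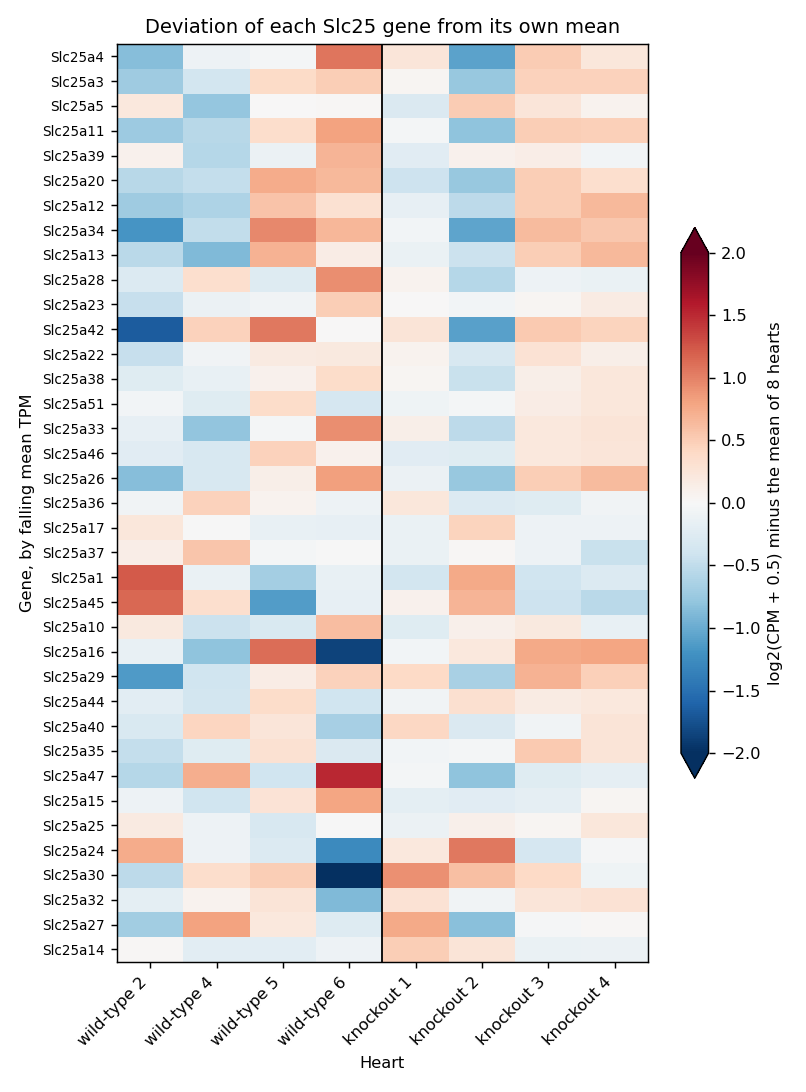
Each row is 1 of 37 of the 38 tested Slc25 genes, each column a heart; color gives log2(CPM + 0.5) minus the gene's mean over 8 hearts, with blue lower and red higher. Wild-type 2 and knockout 2 are blue for Slc25a4, Slc25a34 and Slc25a42 and red for Slc25a1, Slc25a45 and Slc25a24, and wild-type 6 is darkest blue for Slc25a16 and Slc25a30.

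**Figure D4:**
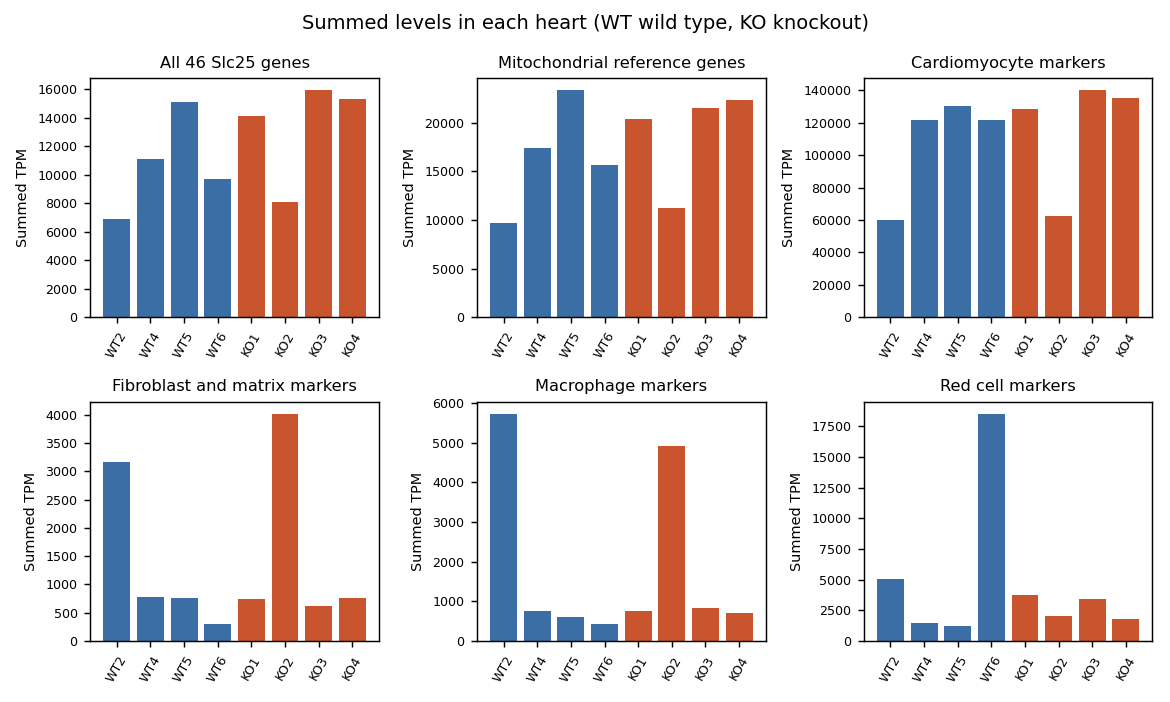
Summed TPM per heart (bars from 0) of all 46 Slc25 genes, of 10 mitochondrial reference genes and of marker lists for cardiomyocytes, fibroblasts and matrix, macrophages and red cells. Wild-type 2 and knockout 2 have the lowest carrier, mitochondrial and cardiomyocyte sums and the highest matrix and macrophage sums, and wild-type 6 has the highest red cell sum.

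Ratios of related carriers were compared because a ratio within a library does not depend on how libraries are scaled for size. Ratios of TPM still depend on how each library was corrected for transcript length. Of 8 pairs, 6 had at least 10 reads for both genes in every heart, and 0 of 6 passed a test between genotypes (exact two-sided permutation over 70 arrangements, smallest possible p = 0.0286; unadjusted p from 0.514 to 0.857, adjusted p = 0.857 for each of 6). Slc25a4 exceeded Slc25a5 by 7.39, 24.5, 14.9 and 31.8 times across wild-type hearts, and by 22.2, 5.13, 18.5 and 17.3 times across knockout hearts. The ratio was lowest in knockout 2 and wild-type 2 and highest in wild-type 6. On the log2 scale it was 4.10 ± 0.93 in wild-type hearts against 3.79 ± 0.96 in knockout hearts (SD, n = 4 each), and the exact permutation p was 0.629. The shuttle pair Slc25a12 to Slc25a13 was the most even, at 1.76, 2.40, 1.82 and 2.20 across wild-type hearts, with 1.94, 1.85, 1.96 and 1.97 across knockout hearts (exact permutation p = 0.571), although from lowest to highest heart Slc25a12 varied 2.58-fold and Slc25a13 3.03-fold in CPM.

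In the remaining ratios single hearts stood out. Slc25a23 to Slc25a24 was 3.86, 8.75, 8.99 and 43.2 across wild-type hearts, with 7.39, 3.54, 10.7 and 8.72 across knockout hearts. Wild-type 6 was far above, and wild-type 2 and knockout 2 below, all others. The iron carriers Slc25a28 to Slc25a37 were at 2.56, 2.95, 2.76 and 7.18 across wild-type hearts, with 3.92, 2.06, 3.19 and 3.98 across knockout hearts, with wild-type 6 highest. For Slc25a39 to Slc25a40 the ratio was 36.0, 17.0, 16.7 and 100.6 across wild-type hearts, with 18.9, 28.5, 25.1 and 18.4 across knockout hearts, again with wild-type 6 highest. Slc25a36 to Slc25a33 was 0.836, 1.75, 0.944 and 0.323 across wild-type hearts, with 0.863, 0.908, 0.636 and 0.696 across knockout hearts, and here wild-type 6 was lowest. Exact permutation p-values of these 4 were 0.514, 0.800, 0.543 and 0.857. Their log2 differences in TPM ratio, knockout minus wild type, were -0.61, -0.14, -0.51 and -0.090. With ratios of scaled counts (0.5 added) the differences were -0.39, -0.045, -0.19 and -0.22, and again 0 pairs passed.

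**Figure D5:**
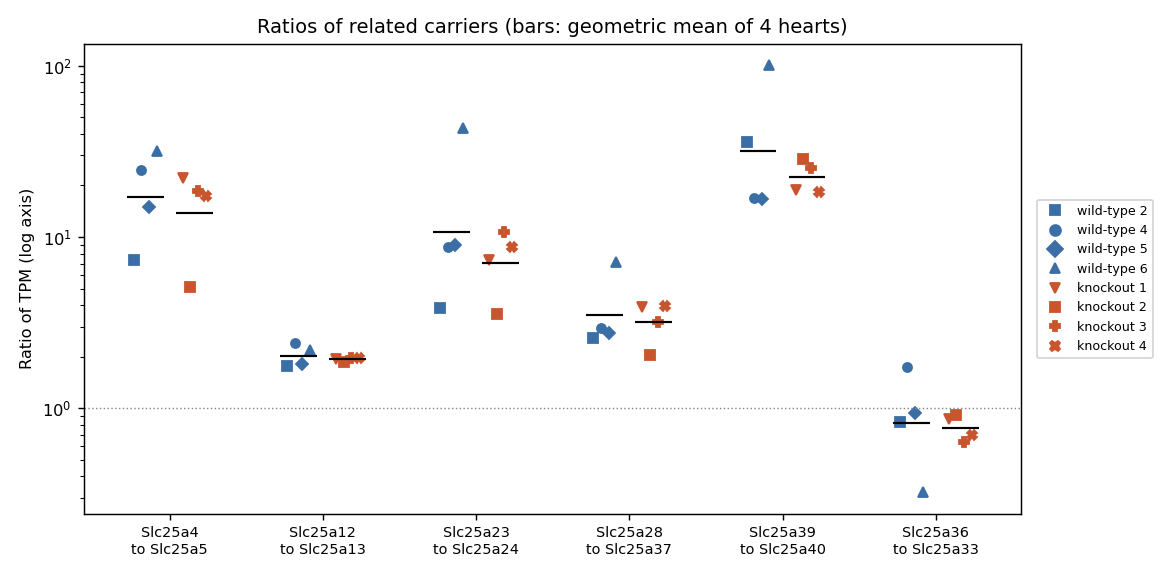
Ratio of deposited TPM of 6 pairs of related carriers in each heart (log axis), blue for wild type and orange for knockout, with the geometric mean of 4 hearts as a bar. The square marks of wild-type 2 and knockout 2 are lowest for Slc25a4 to Slc25a5, and the triangle of wild-type 6 is highest for 4 of 6 pairs and lowest for Slc25a36 to Slc25a33.

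The 8 carriers that were not tested had at most 17 reads in any heart. Slc25a18, the second glutamate carrier, had 6, 14, 3 and 5 reads across wild-type hearts, with 1, 1, 3 and 3 across knockout hearts. The testis ADP/ATP exchanger Slc25a31 had 2, 6, 3 and 6 reads across wild-type hearts, with 5, 10, 11 and 13 across knockout hearts. Slc25a43 had 4, 2, 3 and 0 and 2, 17, 0 and 2, Slc25a53 had 5, 10, 4 and 0 and 3, 12, 4 and 5, and the second ornithine carrier Slc25a2 had 3, 4, 0 and 4 and 4, 3, 0 and 1 reads. Slc25a21, an oxodicarboxylate carrier, had 4 reads over all hearts, while Slc25a41 and Slc25a48 had 1 read each. A count of 0 allows up to 3 reads, which is 0.197 to 0.422 CPM in these libraries. The groups overlapped in CPM for each of these genes. When they were tested with no filter on low counts, 0 of 8 passed, and Slc25a18 alone had an unadjusted p under 0.05, where 1.32% of all genes did.

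In other lists of mitochondrial transport genes, no gene passed either. Of the carrier superfamily members under other names, 0 of 4 tested passed. The uncoupling protein Ucp2 ranged from 18.8 to 223 TPM for the wild type and from 48.0 to 228 TPM for the knockout (log2 fold change -0.17, standard error 0.66), and Mtch1 and Mtch2, outer membrane members of the superfamily, had -0.38 and -0.21. Among 10 genes of the pyruvate carrier, the porins and the sideroflexins, 0 passed, 5 positive and 5 negative, with Mpc1 at 0.15, Mpc2 at -0.35 and Vdac1 at 0.13. The import route that inserts carriers into the inner membrane had 0 of 13 past the threshold, 3 positive and 10 negative, with Timm8b at -0.56, Timm10 at -0.12 and Tomm22 at -0.38. Its summed TPM ran from 1062 to 1406 across wild-type hearts, and from 1182 to 1349 across knockout hearts.

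The enzymes that work with the shuttle carriers, Got1, Got2, Mdh1 and Mdh2, had 0 of 4 past the threshold, with Mdh2 at -0.073, Mdh1 at 0.33 and Got1 at 0.091. The calcium uniporter list had 0 of 7, the mitochondrial reference genes 0 of 10 and the regulators of mitochondrial biogenesis, such as Esrra at -0.11, Tfam at 0.14 and Ppargc1a at 0.21, 0 of 8. Median log2 fold changes of these lists were -0.11, 0.0063 and 0.12, beside -0.019 for all tested genes. The summed TPM of the shuttle enzymes was lowest in wild-type 2, wild-type 6 and knockout 2, at 2422, 2834 and 3264, and ran from 3454 to 6247 in the other 5 hearts. Marker lists of the cell types of the heart gave 0 of 12 for cardiomyocytes, 0 of 10 for fibroblasts and matrix, 0 of 10 for macrophages, 0 of 8 for endothelium, 0 of 8 for smooth muscle and pericytes, 0 of 5 for red cells (median log2 fold change -2.17, with wild-type 6 highest) and 0 of 2 for atrial myocytes. Adipocyte markers were at 0 to 4.33 TPM in sum.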

How the data were processed

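Poly(A) RNA of 8 hearts was sequenced from strand-specific libraries, per the labels' protocols, one of which names rat tissue although the organism field gives mouse. HISAT and Bowtie2 are the tools, and GRCm39 the build, listed in the submitters' processing notes. The sources used here name neither versions nor the counting program. Per the file headers, the authors deposited estimated counts, TPM and FPKM per gene. FPKM was not used, nor were 8 empty per-sample columns. Between 4.32% and 5.89% of the count values were not whole.

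Counts were rounded, filtered with filterByExpr (minimum count 10, total 15), scaled with TMM and tested over all genes with edgeR 4.0.16 (robust quasi-likelihood F-test, Benjamini-Hochberg, threshold 0.05) in R 4.3.3. The procedure was tested on simulated data. Log2 TPM ratios of related carriers were compared by exact two-sided permutation where both genes had at least 10 reads in every heart. Intervals are at 95%, and the limit set by a count of 0 is 3 reads; both cover their stated error only. Alternatives were DESeq2 1.42.0, limma 3.58.1 on log2(TPM + 1), other scalings and filters, a replicate block and leaving out libraries.

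Carriers named with the value in every heart were the 10 with the highest mean TPM, those with unadjusted p under 0.05 or without overlap, members of the related pairs, and in each role group the most abundant and the most changed. Of the tested carriers, 1 enters all counts but is not reported here by name, in text or figures. The members and lists were chosen with earlier results of these data known. Replicate numbers 2 and 4 occur in both genotypes, and the labels do not say that a number marks shared animals or days.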

Additional observations from a re-analysis of the deposited data

Results flagged for a closer look

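Of 68 groups of 4 hearts examined, 4 held a heart far from the other 3 (the gap to the nearest heart over the whole range, above Dixon's 95% value), and chance gives about 1 in 20. Slc25a1 was at 25.6 CPM in wild-type 2 against 6.46 to 9.69 in the other wild-type hearts (ratio 0.831). In the knockout it was at 18.3 CPM in knockout 2 against 7.93 to 8.67 (ratio 0.929). The log2 ratio of Slc25a4 to Slc25a5 was 2.36 in knockout 2 against 4.11 to 4.47 in the other knockout hearts (ratio 0.831). The log2 ratio of Slc25a28 to Slc25a37 was 2.84 in wild-type 6 against 1.36 to 1.56 in the other wild-type hearts (ratio 0.862). Wild-type 2 and knockout 2 had the highest matrix and macrophage marker sums and wild-type 6 the highest red cell sum. The part of these in the values was not tested.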

How the results depend on the processing

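Over 17 other settings, 0 carriers passed except with the replicate block, where 1 did: Slc25a16, log2 fold change 0.99, edgeR adjusted p = 0.0401. Adjusted p-values of the carriers were at least 0.758 in the other 16. The block also raised the genes passing from 4 to 168, carriers at unadjusted p under 0.05 from 0 to 7 (11.3% of all genes were under it in that fit) and the median carrier log2 fold change to 0.23. It leaves 1 residual degree of freedom, since only numbers 2 and 4 occur in both groups. After each gene's mean within its genotype was subtracted from log2 CPM, the hearts numbered 2 correlated at 0.91 and those numbered 4 at 0.11. Nothing in the labels pairs same-numbered hearts. DESeq2 passed 8 genes. Leaving out 1 library gave 2 to 3 genes passing, 0 to 3 carriers at unadjusted p under 0.05 (Slc25a16, Slc25a44 and Slc25a47 without wild-type 5, where 6.45% of all genes were, and Slc25a47 without wild-type 2, where 2.26% were) and a median carrier log2 fold change from -0.066 to 0.13. With no filter, 1 carrier of 46 (Slc25a18) had unadjusted p under 0.05, beside 1.32% of all genes, as did 1 of 39 (Slc25a29) without wild-type 2, wild-type 6 and knockout 2, beside 1.94%. Both of these single carriers are near the share over all genes. The median was 0.34 with limma on TPM, where that of all genes was 0.25. Carriers were 34 positive and 4 negative there, 28 and 10 with total-count scaling (median of all genes 0.081) and 20 and 18 as reported (-0.019). The sign of 22 carriers changed in at least 1 setting, and that of 16 in none. Ratios of 4 against 3 hearts cannot reach an exact permutation p below 0.0571. The causes were not tested.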

Other observations

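The ratio of Slc25a4 to cell type markers was looked at after the values were seen and has no test. Slc25a4 TPM came to 6.83%, 6.40%, 6.96% and 5.85% of the summed cardiomyocyte marker TPM in the wild-type hearts and to 7.67%, 7.18%, 7.66% and 7.19% in the knockout hearts. These groups did not overlap, by the narrow gap between 6.96% in wild-type 5 and 7.18% in knockout 2. The ratio was not computed for other genes, so the share of genes without overlap on this measure is not known. Against the 10 mitochondrial reference genes Slc25a4 came to 42.4%, 44.8%, 38.8% and 45.5% across wild-type hearts, with 48.3%, 40.03%, 49.96% and 43.6% across knockout hearts, and these groups overlapped.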
